A study of Sus scrofa with 8 samples.

Results

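CEP63, NEK4, SPARCL1, GOLGA5, ZC3H8, UACA, FRRS1L, TRIM37 and CHL1 are 9 genes with higher input RNA levels in the adipose tissue of Jinhua pigs than in that of Landrace pigs. They were selected on these same levels, because both Jinhua values lay above both Landrace values. The difference between the breeds in input RNA is therefore a description here and carries no test. All 9 were found among the 22676 gene IDs of the deposited expression table, each under 1 ID, and each carried its symbol in the authors' peak lists. In the same sense 4132 of 13693 tested genes (30.2%) had both Jinhua values above both Landrace values, 3134 of them with a symbol.

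Adipose tissue was taken at 180 days of age from 4 male pigs, 2 Landrace (a lean breed) and 2 Jinhua (a fatty breed), with no treatment named. Each animal gave 1 library of input mRNA and 1 library of mRNA fragments pulled down with an antibody against N6-methyladenosine (m6A), so each breed had 2 libraries of each kind. The samples were whole tissue, in which more cells of a type and more RNA per cell cannot be told apart. The p-values of the comparison measure the spread between 2 animals per breed. Muscle libraries of the same breeds were not analysed here, so whether the difference is also found outside adipose tissue is not given.

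The 9 genes do not form a pathway. CEP63 and TRIM37 act at the centrosome, the organelle that anchors microtubules: CEP63 helps a new centriole form beside an old one, and TRIM37 is a ubiquitin ligase that restrains the assembly of centrosome material away from centrioles. NEK4 is a kinase of the NIMA-related family, whose members work in the cell cycle and at cilia. GOLGA5 encodes golgin-84, a coiled-coil protein that tethers vesicles at the Golgi. SPARCL1 (hevin) is a secreted glycoprotein of the extracellular matrix, and CHL1 is a cell adhesion molecule of the L1 family, known best from neurons. UACA is a coiled-coil protein with ankyrin repeats linked to apoptosis, ZC3H8 is a zinc finger protein of the little elongation complex that transcribes small nuclear RNA genes, and FRRS1L helps AMPA-type glutamate receptors assemble in neurons. m6A is the most common internal mark of mRNA, read here as peaks, stretches of a transcript over-represented after the pull-down.

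The levels are in FPKM, fragments scaled by gene length and by the mapped fragments of the library, so genes can be compared per length. Read numbers were not given, so depth is unknown and no counting interval could be set. Landrace replicate 2 stood apart in skeletal muscle genes. All 11 measured muscle markers had their highest level there, and their summed level was 2896 FPKM, while the other Landrace animal had 88.6 and the Jinhua animals had 89.3 and 140.7. Jinhua replicate 1 had the highest sum of 5 epithelial markers, 111.7 FPKM. That sum was 14.1 in Jinhua replicate 2 and 10.43 and 33.14 in Landrace. It rested largely on KRT8 (52.23 FPKM) and KRT18 (43.72), while KRT19 and CLDN7 were highest in Jinhua replicate 2. The part of other tissue in the libraries was not tested. The adipocyte markers were present in all libraries, with 12 of 15 matched and a summed level of 17400 and 10300 FPKM in Landrace and 8241 and 12040 in Jinhua. ADIPOQ, FABP4 and LPL of that list matched no gene ID.

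CEP63 (ENSSSCG00000011645), the centriole gene, was at 3.07 and 4.75 FPKM in Landrace and at 18.8 and 15.7 in Jinhua (replicates 1 and 2 of each breed in turn, as in all pairs of values that follow). Its lowest Jinhua value was 3.31 times its highest Landrace value, the widest gap of the 9 genes. The means were 3.91 ± 1.18 and 17.2 ± 2.15 FPKM (SD, n = 2), a log2 difference of 1.91 with a standard error of 0.28. TRIM37 (ENSSSCG00000023727), the ubiquitin ligase gene, was at 5.84 and 6.32 FPKM in Landrace and at 16.7 and 15.85 in Jinhua. The animals of a breed lay close together for this gene, within a factor of 1.08 in Landrace and 1.05 in Jinhua. Its mean was 2.67 times higher in Jinhua, the smallest ratio of the 9. NEK4 (ENSSSCG00000011446), the kinase gene, was at 5.67 and 8.47 FPKM in Landrace and at 25.7 and 22.8 in Jinhua. Both Jinhua animals stood at least 2.69 times above both Landrace animals.

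GOLGA5 (ENSSSCG00000002455), the golgin gene, was at 6.25 and 8.93 FPKM in Landrace and at 23.0 and 24.1 in Jinhua. Its Jinhua values were alike (SD 0.769) and its Landrace values less so (SD 1.90), and the groups did not overlap.

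SPARCL1 (ENSSSCG00000009222), the matrix glycoprotein gene, was the most abundant of the 9. It was at 52.85 and 57.65 FPKM in Landrace and at 167.1 and 173.9 in Jinhua, and its mean level was at percentile 92.0 of all tested genes. The animals of a breed differed by a factor of 1.09 in Landrace and 1.04 in Jinhua, and the ratio between the breed means was 3.09. The gene was chosen on these values, so nothing is read from setting them side by side. Endothelial markers, in whose cells hevin was first described, were measured beside SPARCL1. Of 13 measured endothelial markers 6 had lower and 2 higher values in both Jinhua animals, where 18.1% of all tested genes were lower and 30.2% higher in this sense, and their summed level was 1188 and 624.8 FPKM in Landrace against 737.0 and 488.8 in Jinhua. Smooth muscle and pericyte markers summed to 925.0 and 650.6 FPKM in Landrace and to 812.7 and 353.2 in Jinhua. Markers of progenitors and fibroblasts summed to 3546 and 12310 FPKM in Landrace and to 3347 and 6265 in Jinhua. COL3A1 alone was at 2214 and 6883 FPKM in Landrace and at 1575 and 3657 in Jinhua, so this sum rests largely on collagen. The part of these cell types in the SPARCL1 level was not tested.

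CHL1 (ENSSSCG00000011524), the adhesion gene, was at 6.46 and 6.765 FPKM in Landrace and at 16.6 and 20.8 in Jinhua, with no overlap. Nerve and Schwann cell markers summed to 82.9 and 73.9 FPKM in Landrace and to 65.7 and 52.4 in Jinhua. None of the 6 measured nerve markers had higher values in both Jinhua animals and 2 had lower ones, beside the same 30.2% and 18.1% of all tested genes. FRRS1L (ENSSSCG00000005445), the other gene of the 9 known from neurons, was at 4.22 and 1.575 FPKM in Landrace and at 13.7 and 19.0 in Jinhua. It had the largest ratio of means, 5.65, and also the largest spread, with a factor of 2.68 between the Landrace animals and a standard error of 0.56 on its log2 difference of 2.23.

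UACA (ENSSSCG00000004973), the apoptosis-linked gene, was at 7.835 and 7.15 FPKM in Landrace and at 22.6 and 19.3 in Jinhua. ZC3H8 (ENSSSCG00000008099), the elongation complex gene, was the least abundant in Jinhua, with 12.4 and 10.3 FPKM against 2.23 and 3.74 in Landrace. In both genes the breeds did not overlap, which is how the genes were chosen. Their log2 differences were 1.37 with a standard error of 0.12 for UACA and 1.65 with 0.30 for ZC3H8.

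**Figure D1:**
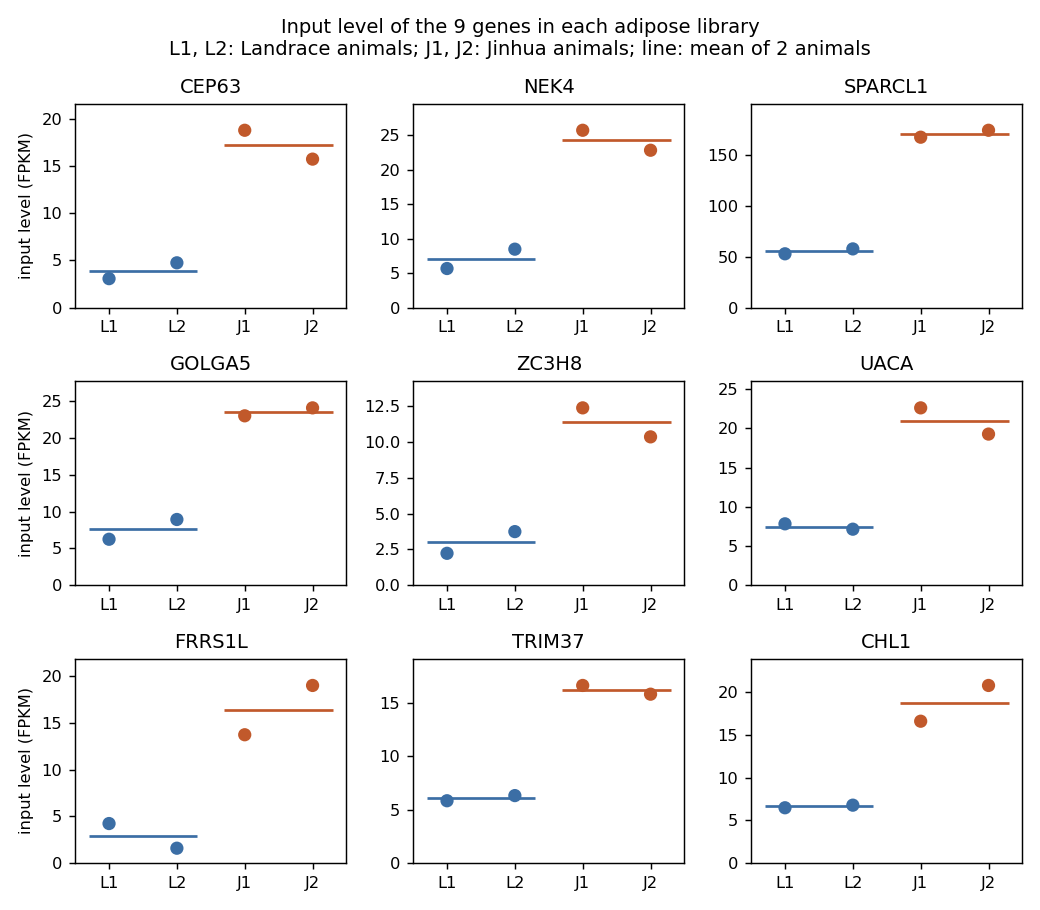
Input level in FPKM (vertical axis, starting at 0, scaled for each gene) of the 9 genes in the 2 Landrace (blue) and 2 Jinhua (orange) animals; each point is 1 library and each line the mean of 2 animals. In every gene both Jinhua points lie above both Landrace points, which is how the genes were chosen and SPARCL1 has by far the highest scale.

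By mean level in Jinhua the order was SPARCL1, NEK4 (24.2 FPKM), GOLGA5 (23.5), UACA (20.9), CHL1 (18.7), CEP63 (17.2), FRRS1L (16.4), TRIM37 (16.3) and ZC3H8 (11.4). From NEK4 to TRIM37 the Jinhua values of neighbours in this order overlapped, except that both values of GOLGA5 (23.0 and 24.1) lay just above the higher of UACA (22.6), so that stretch of the order is within the spread. SPARCL1 at the top and ZC3H8 at the bottom stood clear of their neighbours. SPARCL1 aside, the mean levels lay in the middle of the transcriptome, between percentile 39.3 (ZC3H8) and percentile 61.2 (NEK4). Landrace replicate 2, the library with muscle genes, exceeded Landrace replicate 1 in 7 of the 9 genes, UACA and FRRS1L being the exceptions. Jinhua replicate 1 exceeded Jinhua replicate 2 in 5. No single animal was therefore at the extreme for the whole set. Over the 4 libraries the profiles of NEK4 and ZC3H8 were the closest of the 36 pairs, with a root mean square distance of 0.03 on the centred log2(FPKM + 1) scale, and those of ZC3H8 and FRRS1L the farthest, with 0.67.

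Values on the edge of the set were of the same kind. When the genes with a symbol and a higher Jinhua level were ranked by their limma p, the 9 held ranks between 2 and 12. STARD6 held rank 1, ahead of the 9, and PRCD (rank 3) and CU459197.3 (rank 11) stood among them. STARD6 and PRCD were listed at 0 in both Landrace animals. CU459197.3 was at 3.96 and 7.60 FPKM in Landrace and 36.1 and 21.5 in Jinhua. The next 3 after CHL1, the last of the 9 in rank, were PIK3C3, PIH1D2 and KTN1. PIK3C3, the class III phosphoinositide kinase gene of autophagy, was at 4.52 and 4.81 FPKM in Landrace and 12.3 and 12.5 in Jinhua. KTN1, which encodes the coiled-coil protein kinectin, was at 10.05 and 13.1 FPKM in Landrace and 37.3 and 29.4 in Jinhua. The lowest Jinhua value was at least 2 times the highest Landrace value in all 9 genes and in 278 of 13693 tested genes, 146 of them with a symbol. With limma, 2 tested genes (0.0146%) were called higher in Jinhua at an adjusted p under 0.05, and 0 of the 9 were among them, while 801 genes had an unadjusted p under 0.05 in that direction. The count of gaps and the limma counts used the contrast that chose the 9 genes, and nothing is read from them.

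The genes whose profile over the 4 libraries was most like each of the 9 were found among 9993 other tested genes with a symbol. Of these, SIKE1 was the closest to both ZC3H8 (distance 0.03) and NEK4 (0.05), SBDS to UACA (0.03), PIK3C3 to TRIM37 (0.04), TXN to GOLGA5 (0.06), RABEP1 to CHL1 (0.10), PIH1D2 to SPARCL1 (0.10), PCNP to CEP63 (0.13) and TFPI to FRRS1L (0.29). A likeness over 4 libraries rests on few values. TXN, the thioredoxin gene, was at 184.5 and 252.9 FPKM in Landrace and 557.8 and 633.0 in Jinhua, the same order of animals as GOLGA5.

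Genes of the same complexes and families were then listed, 9 lists with 119 tested genes in all, to see how the relatives of each gene lay. No relative passed the threshold in limma (0 of 119, lowest adjusted p = 0.496), and 14 had an unadjusted p under 0.05. Over all 13693 tested genes, limma gave an unadjusted p under 0.05 to 801 with Jinhua higher and 530 with Jinhua lower. Nothing is read from the 14. Their values are given as groups apart, for which the background was 30.2% of tested genes with Jinhua higher and 18.1% with Jinhua lower. With median-ratio scaling these shares became 23.4% and 23.6%. The median log2 difference of all tested genes was 0.15, and each list median is to be read against it.

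Of 26 tested genes of the centriole and centrosome, the relatives of CEP63, 17 (65.4%) had both Jinhua values above both Landrace values and 1 (POC1A) had them below. The median log2 difference of the list was 0.44, and 0.28 without Jinhua replicate 1. CETN3 and CETN2, which encode centrins, the calcium-binding proteins of the centriole, had the largest differences. CETN2 was at 29.0 and 40.6 FPKM in Landrace and at 87.1 and 68.8 in Jinhua. CETN3 was at 3.17 and 12.2 FPKM in Landrace and at 23.8 and 16.1 in Jinhua, so its Landrace animals differed widely. PCM1, the scaffold of centriolar satellites, was at 6.58 and 11.2 FPKM in Landrace and 21.8 and 17.9 in Jinhua. CEP164, a gene of the distal appendages that dock cilia, overlapped between the breeds (13.4 and 7.26 against 8.01 and 8.59 FPKM). Without 1 animal at a time the count of centrosome genes apart with Jinhua higher stayed between 17 and 21, while the count with Jinhua lower went from 1 to 6 without Landrace replicate 2, to 2 without Jinhua replicate 1 and to 3 without Jinhua replicate 2. Leaving out an animal also makes it easier for groups to lie apart.

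Of 21 tested golgins and Golgi tethers, the relatives of GOLGA5, 11 (52.4%) had both Jinhua values higher and 2 (GORASP1 and COG7) had both lower, with a median log2 difference of 0.43, or 0.25 with median-ratio scaling. GOLGA4, a golgin of the trans-Golgi, was at 16.3 and 19.8 FPKM in Landrace and at 45.7 and 45.6 in Jinhua. GOLGB1, the largest golgin, was at 9.68 and 9.96 FPKM in Landrace and 25.3 and 22.7 in Jinhua. GORAB, listed at 0 in Landrace replicate 1, was at 2.77 FPKM in Landrace replicate 2 and at 5.88 and 3.01 in Jinhua. The stacking proteins GORASP1 and GORASP2 had log2 differences of -0.28 and -0.04, and the values of GORASP2 overlapped between the breeds. With median-ratio scaling the golgins were 10 higher and 5 lower, and without Landrace replicate 2 they were 14 higher and 6 lower.

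The TRIM ubiquitin ligases, the family of TRIM37, had more members with lower than with higher Jinhua values. Of 23 tested gene IDs 10 had both Jinhua values lower and 5 had both higher, and the median log2 difference was -0.26. That median was -0.12 without Landrace replicate 1, -0.41 without Landrace replicate 2, -0.07 without Jinhua replicate 2, -0.42 with median-ratio scaling and -0.08 with no filter on low levels. TRIM47 was at 26.8 and 30.2 FPKM in Landrace and at 8.60 and 11.4 in Jinhua. TRIM25, a ligase of antiviral signalling, stood under 2 gene IDs, both apart with Jinhua lower, 1 of them at 22.1 and 13.5 FPKM in Landrace and 3.71 and 6.10 in Jinhua. TRIM24, at 8.97 and 7.57 FPKM in Landrace and 14.1 and 12.8 in Jinhua, had the highest log2 difference of the list, 0.64. With median-ratio scaling 3 TRIM genes had both Jinhua values higher and 12 had both lower.

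The lists for SPARCL1 and CHL1 were small. Beside the 30.2% higher and 18.1% lower of all tested genes, nothing is read from their counts. None of the 4 tested genes of the SPARC family had groups apart, and SPARC itself, the abundant collagen-binding glycoprotein, was at 6090 and 13020 FPKM in Landrace and at 4403 and 13010 in Jinhua, a larger spread within the breeds than between them. Of 9 tested L1-related adhesion genes 4 had both Jinhua values lower and 2 had both higher, and the median log2 difference of -0.06 became 0.285 without Jinhua replicate 2. L1CAM was at 10.6 FPKM in both Landrace animals and at 4.81 and 6.52 in Jinhua, and PLXNA1, a semaphorin receptor gene, was at 8.14 and 11.7 FPKM in Landrace and 3.06 and 5.21 in Jinhua.

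Of 12 tested genes of the little and super elongation complexes, the relatives of ZC3H8, 7 were apart with Jinhua higher and 1 (CDK9) lower, with a median log2 difference of 0.56. The median was 0.315 without Jinhua replicate 1, 0.25 at a mean of at least 5 FPKM and 0.27 with no filter. ICE2, a core subunit of the little complex, was at 2.70 and 1.99 FPKM in Landrace and 5.48 and 3.59 in Jinhua, and CCNT2, a cyclin partner of CDK9, had a log2 difference of 0.93. Among 6 tested NEK kinases 5 were apart with Jinhua higher and 1 (NEK8) lower. NEK7 was at 12.45 and 5.53 FPKM in Landrace and 20.15 and 14.5 in Jinhua, and NEK3 was at 0.64 and 0.93 FPKM in Landrace and 2.65 and 0.98 in Jinhua, a narrow gap. The list for UACA, named apoptosome, also held other genes of mitochondrial apoptosis, BAK1 and AIFM1 among them. Of its 10 tested genes 5 were apart with Jinhua higher and 1 (BAK1) lower. APAF1 and CASP9, of the apoptosome itself, overlapped between the breeds. CYCS, cytochrome c, had 53.4 ± 8.70 FPKM in Landrace and 98.2 ± 18.9 in Jinhua (SD, n = 2), and AIFM1 had 42.3 ± 5.92 and 69.9 ± 4.90. Among 8 tested genes of AMPA receptor assembly, the relatives of FRRS1L, 5 were apart with Jinhua higher and 2 (GRIA3 and PORCN) lower. ABHD6, a lipase of that pathway, was at 11.9 and 18.8 FPKM in Landrace and at 23.7 and 30.9 in Jinhua, and PORCN was at 8.24 and 6.70 against 5.245 and 2.93.

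**Figure D2:**
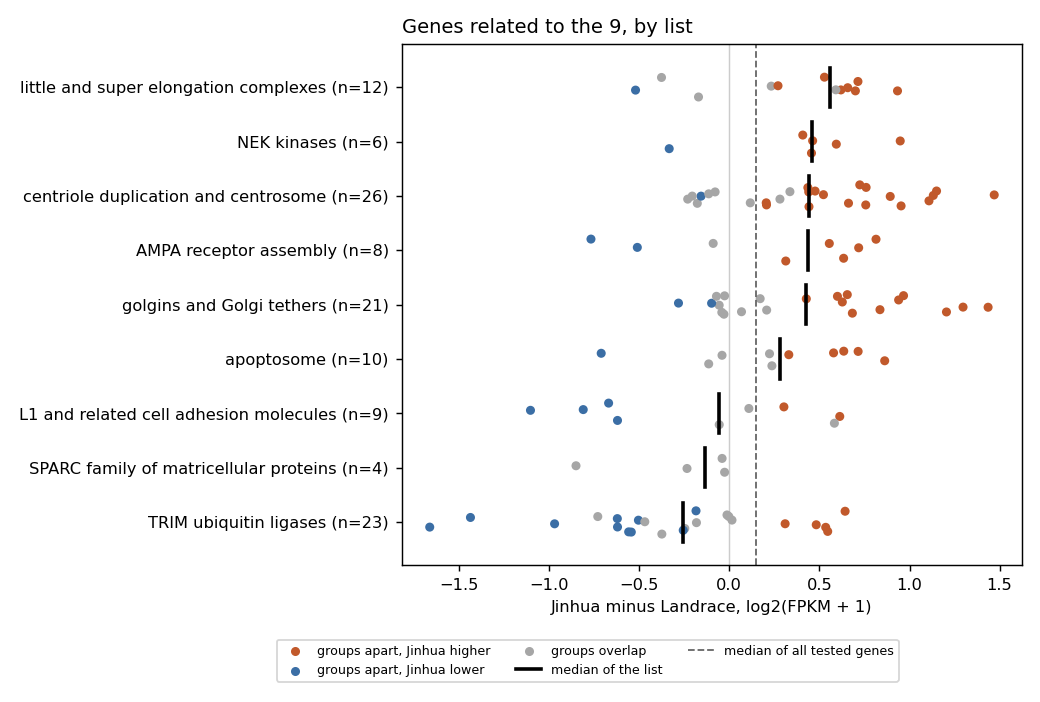
Jinhua minus Landrace difference on the log2(FPKM + 1) scale (horizontal axis) for each tested gene of the 9 lists of relatives (rows, number tested in brackets); orange points have both Jinhua values above both Landrace values, blue points the reverse, grey points overlap, black bars are list medians and the dashed line is the median of all tested genes at 0.15. Centrosome genes (17 orange of 26) and golgins (11 of 21) reach furthest right, and TRIM genes (10 blue of 23) furthest left.

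The numbers and places of m6A peaks were not used to choose the 9 genes, although each gene was identified by its symbol in the peak lists. The peaks were called by the authors in each IP library and are given as a start and end on a transcript, counted from 1. The lists differed in length, with 8909 peaks for Landrace replicate 1, 19039 for Landrace replicate 2, 20688 for Jinhua replicate 1 and 16116 for Jinhua replicate 2. The 9 genes held 2, 15, 18 and 18 peaks in that order, which is 0.22, 0.79, 0.87 and 1.12 per 1000 peaks of each list. Landrace replicate 1, which had the shortest list, was thus lowest, and Landrace replicate 2 lay near Jinhua. All 9 genes had a peak in at least 1 list, which follows from their symbols having been taken from these lists. With 2 libraries a breed, the smallest two-sided p that exact permutation could give for 1 gene is 0.333, so the peak numbers of a gene are given as they stand.

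UACA had 0 and 3 peaks in the Landrace lists and 5 and 6 in the Jinhua lists. ZC3H8 had 0 and 1 in Landrace and 2 in each Jinhua list. These were the 2 of 9 genes with more peaks in both Jinhua lists than in both Landrace lists, against 14.4% of the 9882 tested genes with a peak. The share was 27.4% among those with both Jinhua input values above both Landrace values. None of the 9 had fewer in both. The count was 4 of 9 without Landrace replicate 2 (44.3%), without Jinhua replicate 1 (25.7%) and without Jinhua replicate 2 (35.0%). These shares are of tested genes with a peak in the lists that were left. GOLGA5 had 0 and 4 peaks in Landrace and 4 and 3 in Jinhua, so its number in Landrace replicate 2 was no lower than in Jinhua while its input level there was 8.93 FPKM against 23.0 and 24.1.

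SPARCL1 was the 1 gene of the set with peaks in all 4 lists, 2 and 5 in Landrace and 4 and 2 in Jinhua. The Jinhua minus Landrace difference of the mean number was -0.5, and 0.5 when peaks within 50 bases of each other were merged. NEK4 had 0 and 2 peaks in Landrace and 1 in each Jinhua list, again no more in Jinhua. The remaining genes had few peaks. CEP63 and FRRS1L had 1 each, in Jinhua replicate 1. TRIM37 had 1 and CHL1 had 3, all in Jinhua replicate 2. These 4 of 9 genes had a peak in a Jinhua list and in no Landrace list, and none of the 9 had the reverse. The share was 16.1% of tested genes with a peak, and 26.8% of those with both Jinhua input values above both Landrace values. The symbols of the 4 were taken here from a Jinhua list alone, so nothing is read from this count. None of the 4 had a peak in both Jinhua lists, so the count rested on a single library per gene. The count was 2 without Jinhua replicate 1 and 2 without Jinhua replicate 2, against 10.4% and 12.9% of tested genes with a peak in the lists left. Without Landrace replicate 2 it was 8, against 48.9%.

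Merged where they overlapped by at least 1 base, the 53 peaks of the 9 genes formed 27 sites, of which 14 were seen in a single library, 13 (48.1%) in 2 or more, 10 in 3 or more and 1 in all 4. Over all genes 63.3% of 27320 sites were seen in 2 or more libraries. Of the 27 sites 12 were shared by the breeds, 13 (48.1%) were found in Jinhua lists alone and 2 in Landrace alone, against 29.7% and 16.2% of all sites. All sites are not a like background, since the 9 genes were chosen for higher Jinhua input. More peaks in both Jinhua lists were found in 27.4% of genes with higher Jinhua input and in 4.44% with lower. Shares of sites were not computed for genes higher in Jinhua alone, so nothing is read from the difference. A single site was found in both Jinhua lists and in no Landrace list, at bases 568 to 721 of the ZC3H8 transcript ENSSSCT00000008872.

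The site seen in all 4 libraries lay in the coding sequence of SPARCL1, at bases 1009 to 1336 of ENSSSCT00000010101. In both Landrace lists it was called as 2 adjoining peaks and in both Jinhua lists as 1 peak. A second SPARCL1 site, at 705 to 874, was absent from the list of Landrace replicate 1 alone. In UACA, on ENSSSCT00000005485, sites at 941 to 1144, 3114 to 3374 and 3903 to 4070 were shared by Landrace replicate 2 and both Jinhua libraries. The other 5 were seen in 1 Jinhua library each. Among these 5, the site at 1145 to 1341 adjoined the Jinhua replicate 2 peak at 968 to 1144, which belonged to a shared site. In GOLGA5, on ENSSSCT00000002725, the site at 45 to 200 lay in the 5' UTR. Landrace replicate 2 and both Jinhua libraries shared it, and also those at 577 to 748 and at 1930 to 2123 in coding sequence. NEK4 had its shared site at 1607 to 1758 of ENSSSCT00000012526, and ZC3H8 at 22 to 180.

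Coding sequence held 49 of the 53 peaks (92.5%), against 72.9% of the 64752 peaks of all genes. A further 3 were the GOLGA5 peaks in the 5' UTR, and 1, in CHL1 at bases 3733 to 3965 of ENSSSCT00000012613, was in the 3' UTR, where 20.6% of all peaks lay. Peaks of 1 gene and of 1 site are not independent, so no interval is set on these shares. The peaks were between 100 and 272 bases wide, with a median of 154.

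**Figure D3:**
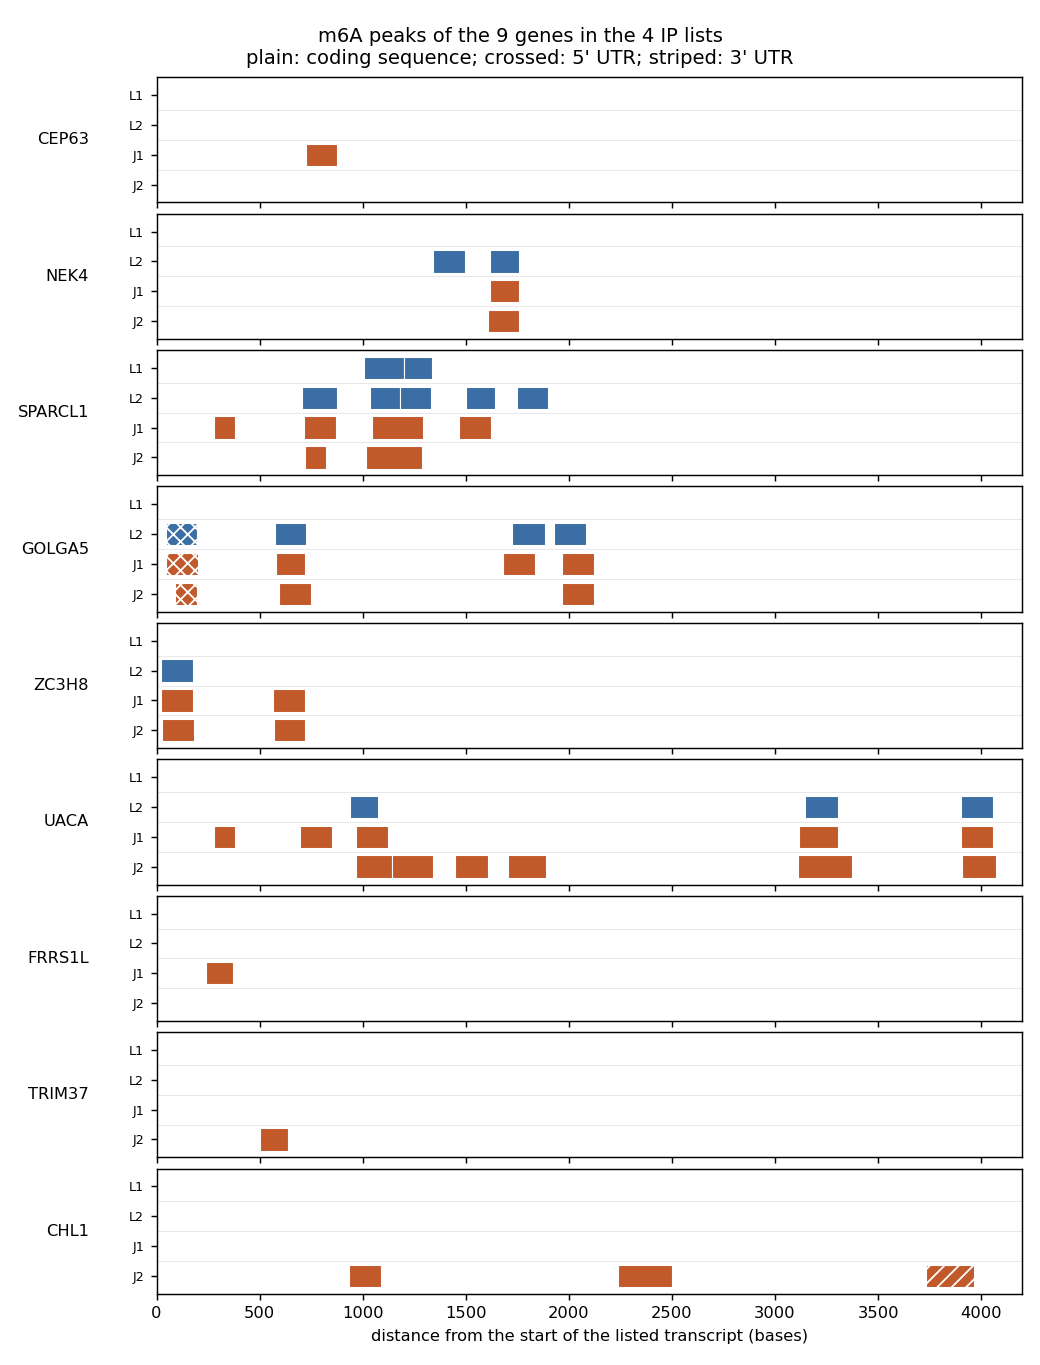
Position of each m6A peak (bars) of the 9 genes along the listed transcript (horizontal axis, bases from its start), in rows for Landrace (L1, L2, blue) and Jinhua (J1, J2, orange) libraries; plain bars lie in coding sequence, crossed bars in the 5' UTR and striped bars in the 3' UTR, and the ends of the transcripts are not drawn. Bars of L2, J1 and J2 stack at the same places in SPARCL1, GOLGA5, UACA, NEK4 and ZC3H8, and L1 has bars in SPARCL1 alone.

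Relatives of the genes also carried peaks in numbers that followed the length of the lists in part. The 26 centrosome genes held 5 and 28 peaks in Landrace and 40 and 26 in Jinhua, with 10 of the 40 in NIN, a gene of the subdistal appendages. The 21 golgins and tethers held 31 and 59 peaks in Landrace and 74 and 70 in Jinhua. GOLGB1 had 2 and 10 peaks in Landrace and 13 and 11 in Jinhua, and GOLGA4 had 5 and 6 against 9 and 11. The TRIM genes, lower in Jinhua more often than higher, held 18 and 45 peaks in Landrace and 39 and 23 in Jinhua.

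**Figure D4:**
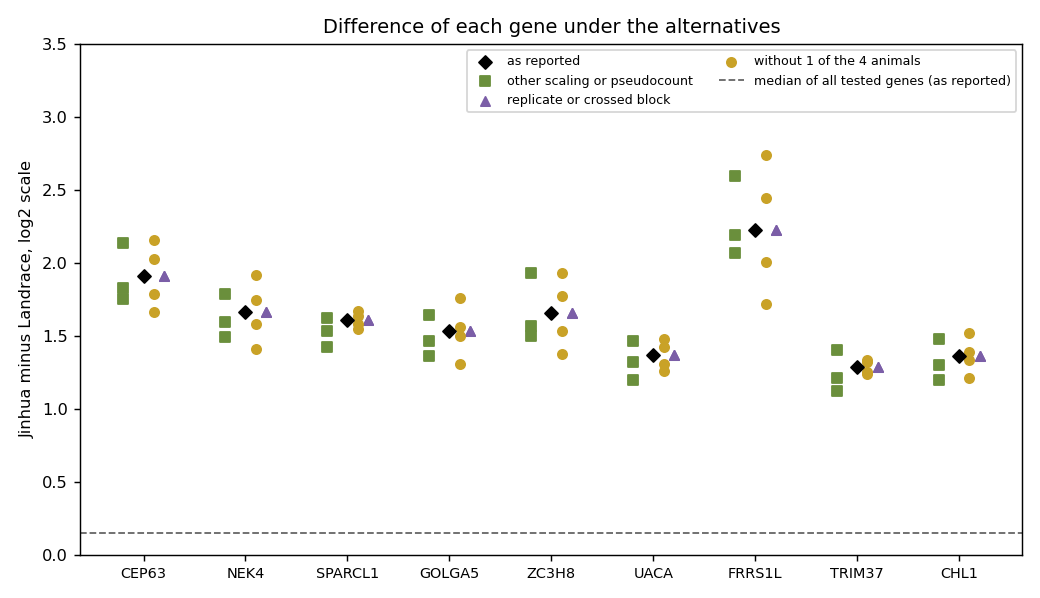
Jinhua minus Landrace difference of each of the 9 genes on the log2 scale (vertical axis) as reported (black diamonds), with other scaling or pseudocount (green squares), with a block by replicate number (purple triangles) and without 1 of the 4 animals (yellow circles); the dashed line is the median of all tested genes at 0.15. All values lie between 1.12 and 2.74, and FRRS1L has the widest range. The choice of the genes fixes the sign when an animal is left out, and a block cannot change the difference.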

How the data were processed

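Input mRNA and m6A IP libraries of adipose tissue from 4 pigs were analysed. The authors' expression table gave 1 value per gene and input library, taken as FPKM made by the authors because, per the file headers, its ID column has the name Cufflinks writes, and because the values were neither whole nor logged. The authors' peak lists, 1 per IP library, gave the number, start, end and transcript part of peaks, with no score. Per the submitters' processing notes, TopHat2 version 2.0.14, Sscrofa10.2 and susScr3 were named, with no role. The quantifier, the use of strand and the peak caller are not given in the sources used here. Another 4 expression columns and 4 peak lists belong to no sample analysed here and were left aside. No genome or transcript sequence was used, so no chromosome position or sequence is given.

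Symbols came from the peak lists (7626 IDs) and otherwise from an Ensembl name table (5367 IDs). Genes with a mean FPKM of at least 1 were compared on log2(FPKM + 1) with limma 3.58.1 in R 4.3.3 (mean-variance trend, two-sided, Benjamini-Hochberg adjustment, threshold 0.05), which was tested on simulated data first. Fold changes on this scale understate those of low genes. The genes, the lists of relatives and markers, and the tests were chosen with earlier results of these data known. Named beside the 9 genes were the 3 genes next in rank, the 2 genes of each list with the largest difference among those with groups apart, and the closest profile; PCM1, CEP164, GOLGB1, GORASP2, TRIM24, SPARC, NIN, and single genes behind a small count were named after their values were seen. Deviations of same-numbered animals had a correlation of -0.384 across genes, so no replicate block was used. With 2 animals per breed, differently numbered animals of the breeds thus deviated together to that degree. A crossed block was fitted as an alternative for this reason. Alternatives were median-ratio and quantile scaling, a pseudocount of 0.1, other filters, blocks, leaving out each library, and other rules for peaks.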

Additional observations from a re-analysis of the deposited data

How the results depend on the processing

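The 9 log2 differences ranged from 1.12 to 2.74 over 81 values from other scalings, a pseudocount of 0.1, the replicate block, the crossed block and leaving out each animal. Their sign is no evidence of stability, since genes chosen for groups that do not overlap keep it when an animal is left out. The limma calls (2 higher and 3 lower) depended on the setting. They were 0 and 0 with median-ratio scaling, after removing genes with a 0 in at least 2 libraries, with the replicate block (320 and 375 genes at an unadjusted p under 0.05), with the crossed block and without any 1 animal (0 to 0), and 1 higher with no filter. The replicate block and the crossed block cannot change the difference of any gene, since each level of a block holds an animal of each breed. Their values for the 9 genes thus repeat the main ones. The numbers of genes with groups apart were 4132 higher and 2481 lower, and without 1 animal they ran from 5321 to 6610 higher and from 3745 to 4575 lower, since 2 animals against 1 lie apart more easily.

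List medians moved by more than the spread between animals as follows. With median-ratio scaling, centrosome had 0.31, golgins 0.25, apoptosome 0.11 and TRIM -0.42, and with quantile normalization TRIM had -0.33. Centrosome had 0.58 with the pseudocount of 0.1. At a mean FPKM of at least 5, centrosome had 0.62, elongation complexes 0.25, TRIM -0.36 and L1-related genes -0.62. With no filter, elongation complexes had 0.27, AMPA receptor assembly 0.0015 and TRIM -0.084. Without 1 animal the medians ran from 0.28 to 0.62 for centrosome and from 0.32 to 0.51 for elongation complexes (0.56 with all). They ran from 0.27 to 0.42 for the apoptosome list, from -0.41 to -0.069 for TRIM and from -0.56 to 0.28 for L1-related genes. The medians kept their sign in the other 4 lists.

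Genes with more peaks in both Jinhua lists numbered 1419, and between 1621 and 4154 without 1 IP library. Peaks per 1000 peaks of the list gave 1442, and genes with a mean FPKM of at least 5 gave 1118. Merging peaks within 50 bases turned the mean difference of SPARCL1 from -0.5 to 0.5 peaks, because the adjoining peaks of the Landrace lists became 1. The mean difference of UACA went from 4.0 to 3.5 and that of GOLGA5 from 1.5 to 2.0. Sites shared by 2 or more libraries numbered 13 also under the stricter overlap, a share of the shorter peak. The causes of the other changes were not tested. The unknown depth limits every value below a few FPKM.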

Other observations

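Across the 9882 tested genes with a peak in any list, the number of m6A peaks moved with the input level. More peaks in both Jinhua lists than in both Landrace lists were found in 848 of 3090 genes (27.4%) with both Jinhua input values above both Landrace values, in 491 of 4990 (9.84%) with overlapping input values and in 80 of 1802 (4.44%) with both Jinhua input values lower. The input and IP libraries came from the same animals and genes are not independent replicates, so these shares are a description. Of the 9 genes higher in Jinhua 2 (22.2%) had more peaks in both Jinhua lists. A peak in a Jinhua list and in no Landrace list was found in 829 of the 3090 higher genes (26.8%) and in 4 of the 9. The symbols of these 4 came from a Jinhua list alone, so that count is not independent of how the genes were named.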
